A study of Mus musculus with 24 samples.

Results

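The genes described here are the 7 AP-1 members Fos, Fosb, Fosl2, Jun, Junb, Jund and Atf3, measured in long-term haematopoietic stem cells (LT-HSCs) sorted from mouse bone marrow. They were chosen by name, 1 row each among the 38215 genes of the table, and all 7 passed the low-count filter that left 15879 genes for testing. The 24 libraries came from 12 chimeric mice and fell into 4 groups of 6. These were Jak2V617F LT-HSCs under pegIFNa, Jak2V617F LT-HSCs under vehicle, wild-type (WT) LT-HSCs under pegIFNa and WT LT-HSCs under vehicle. Each recipient had been lethally irradiated with 11 Gy, given as split doses of 5.5 Gy, and carried 2000000 bone marrow cells mixed in equal parts of mutant and congenic WT marrow. Mutant marrow was Jak2fl-V617F/+, Tg(E2A-cre) and marked by CD45.2, whereas WT marrow was Jak2+/+ and marked by CD45.1. Tg(E2A-cre) is a broadly active Cre, so the mutation is not limited to blood stem cells in the donor, and both genotypes met the same irradiated host. The agent, pegylated interferon alpha (pegIFNa), was given weekly at 600.0 ng for 5 doses over 4 weeks, vehicle mice had PBS with bovine serum albumin, and cells were taken 48 h after the last pegIFNa dose. The sort gate was Lin-/Sca1+/cKit+/CD150+/CD48-. In the library names, the same replicate number of Jak2V617F and WT within a treatment stands for the same mouse, so the genotypes were also compared within mice.

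AP-1 is a dimer of basic leucine zipper proteins that binds DNA and changes transcription. Fos proteins pair with Jun proteins and do not form stable dimers of their own, Jun proteins can pair with each other or with Fos, and Atf3 pairs with Jun proteins or with itself. Most of these genes are immediate early genes: they are transcribed within minutes of a signal through MAP kinases, serum response factor or cAMP response element binding protein, without new protein synthesis, and their messages are short-lived because of AU-rich elements in the 3' untranslated region. Jund is the steadier member of the family, and the immediate early genes are also known to be induced while tissue is dissociated and cells are sorted.

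The promoter windows shown are those of the 5 members that passed the test as lower under pegIFNa in WT cells, and the letters near their starts differ. All 7 members had an entry in the RefSeq table of mouse build GRCm38.p6, which runs from 250 bases before to 50 bases after each start and holds 32851 entries. Capitals mark the motifs TGACG (the short form of the cAMP response element), TGACNTCA (the 8-base AP-1 site known from the Jun promoter), TATAAA and the core of the interferon-stimulated response element, searched on both strands, each window being written 5' to 3' along its gene.
Fos (chr12:85473640-85473939, plus strand): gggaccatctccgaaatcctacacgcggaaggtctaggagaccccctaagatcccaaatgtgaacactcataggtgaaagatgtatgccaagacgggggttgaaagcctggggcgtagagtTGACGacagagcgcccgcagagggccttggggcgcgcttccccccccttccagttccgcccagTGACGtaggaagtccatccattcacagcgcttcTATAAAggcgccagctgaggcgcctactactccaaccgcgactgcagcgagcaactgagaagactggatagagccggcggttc
Fosb (chr7:19309996-19310295, minus strand): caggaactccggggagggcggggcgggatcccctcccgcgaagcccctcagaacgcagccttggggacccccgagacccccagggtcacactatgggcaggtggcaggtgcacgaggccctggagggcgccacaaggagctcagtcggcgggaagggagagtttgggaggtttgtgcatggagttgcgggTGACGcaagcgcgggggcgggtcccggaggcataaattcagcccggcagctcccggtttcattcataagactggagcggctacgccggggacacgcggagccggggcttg
Fosl2 (chr5:32136222-32136521, plus strand): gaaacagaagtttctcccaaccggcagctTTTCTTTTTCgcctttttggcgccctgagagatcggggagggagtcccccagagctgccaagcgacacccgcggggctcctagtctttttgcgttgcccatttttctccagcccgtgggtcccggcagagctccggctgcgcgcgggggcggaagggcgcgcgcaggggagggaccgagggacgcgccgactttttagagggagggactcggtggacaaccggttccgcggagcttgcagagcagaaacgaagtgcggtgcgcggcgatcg
Jun (chr4:95052173-95052472, minus strand): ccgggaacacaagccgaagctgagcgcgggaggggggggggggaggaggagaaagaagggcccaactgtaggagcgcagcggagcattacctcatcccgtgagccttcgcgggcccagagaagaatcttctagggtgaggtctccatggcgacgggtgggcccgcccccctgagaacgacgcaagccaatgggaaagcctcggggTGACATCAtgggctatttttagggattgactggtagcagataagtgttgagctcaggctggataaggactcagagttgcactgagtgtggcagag
Junb (chr8:84978699-84978998, minus strand): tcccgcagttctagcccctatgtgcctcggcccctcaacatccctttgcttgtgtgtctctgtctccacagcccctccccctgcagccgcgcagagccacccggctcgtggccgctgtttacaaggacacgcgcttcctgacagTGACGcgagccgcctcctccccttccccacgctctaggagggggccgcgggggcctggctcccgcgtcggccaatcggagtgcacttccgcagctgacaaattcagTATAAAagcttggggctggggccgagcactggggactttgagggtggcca
TGACG stood in the windows of Fos (129 and 66 bases before the start), Fosb (60 bases before), Junb (106 bases before) and Atf3 (7 bases before, on the opposite strand), which is 4 of 7 members against 20.8% of all windows. Jun alone held TGACNTCA, 45 bases before its start, against 8.83% of all windows. TATAAA stood 33 bases before the start of Fos and at the RefSeq start itself in Junb, against 13.6% of all windows. Fosl2 was the only member with the interferon-stimulated response element core, 221 bases before its start, against 3.44% of all windows. The 7-base AP-1 site TGANTCA, the full element TGACGTCA, the interferon gamma activated site TTCNNNGAA and the CArG box bound by serum response factor had no match in any member window, against 7.81%, 1.79%, 8.30% and 1.63% of all windows. Sites more than 250 bases before a start lie outside the windows, so a missing match does not show that a gene lacks the site. TGACG lies within TGACGTCA. For Jund, whose window is not shown, the start was 70697739 on chromosome 8 in the table and 70698949 in GENCODE vM21. In the same order, starts also differed for Fosl2 (32136472 and 32135801), Fosb (19310045 and 19310051), Junb (84978748 and 84978718) and Atf3 (191183340 and 191218039). Motif distances are counted from the RefSeq start of each window and were not recounted from the GENCODE starts. In the longest annotated 3' untranslated region, the AU-rich heptamer TATTTAT was present in 6 of 7 members against 29.2% of 13119 tested genes. There were 3 copies in Fosl2, 2 in Fos, 1 each in Fosb, Jun, Jund and Atf3, and 0 in Junb. These regions had 4656 bases in Fosl2, 2305 in Fosb, 1236 in Jun and 1189 in Atf3. They had 818 bases in Fos, 536 in Jund and 488 in Junb, beside a median of 1140 bases. Longer regions have more room for a match, and the share over all genes was not matched for length.

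Levels are given in CPM, the expected counts divided by the library total and scaled by the trimmed mean of M-values (TMM). Library totals ran from 24.6 M to 39.7 M expected counts. Mitochondrial genes took 2.00 to 3.25% of the counts under pegIFNa against 2.68 to 3.44% under vehicle in Jak2V617F cells. In WT cells they took 1.54 to 2.24% under pegIFNa against 2.46 to 4.01% under vehicle, without overlap, and the part of this in the treatment results was not tested. All 10 LT-HSC markers passed the filter, and their summed level was 1078 to 1721 CPM under pegIFNa against 1507 to 1955 CPM under vehicle in Jak2V617F cells, and 1190.1 to 1605 CPM under pegIFNa against 1934 to 2659 CPM under vehicle in WT cells. No matched gene of the 6 marker lists for other cells was at 0 in every library. The summed T and NK cell markers, of which 2 of 6 were tested, were 89.7 to 143 CPM under pegIFNa against 58.8 to 78.2 CPM under vehicle in Jak2V617F cells and 65.4 to 103 CPM against 36.7 to 81.2 CPM in WT cells. The summed markers of granulocytes and monocytes were 702 to 1189.5 CPM under pegIFNa against 302 to 1701 CPM under vehicle in Jak2V617F cells, and 147 to 504 CPM against 273 to 834 CPM in WT cells. Over all libraries, the summed markers were 24.4 to 302.2 CPM for erythroid cells, 9.51 to 24.1 CPM for B cells, 764 to 2648 CPM for megakaryocytes and 65.7 to 169 CPM for endothelial and stromal cells. In bulk samples, fewer cells of a type and less RNA per cell cannot be told apart, and the part of these lists in the results below was not tested. Sex-linked genes moved with genotype: Xist was 2.98 to 654 CPM in Jak2V617F libraries and 599.8 to 3310.2 CPM in WT libraries, and 4 Y-linked genes summed to 149 to 243 CPM and 2.17 to 249.6 CPM, so genotype and donor sex cannot be told apart. The WT vehicle library of replicate 4 and the Jak2V617F pegIFNa library of replicate 1 stood apart from their groups on these genes, and results that change without them are given with both values. Jak2 itself was measured at 126 ± 9.39 and 119 ± 8.80 CPM in Jak2V617F cells under pegIFNa and vehicle, and at 156 ± 5.10 and 138 ± 16.7 CPM in WT cells (SD, n = 6 each); V617F is a point substitution, so these counts do not check the genotype.

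Under vehicle, 5 of the 7 members were among the most abundant messages of LT-HSCs. Fos pairs with Jun proteins to bind DNA. Per kilobase of exon, its median level was 549.8 CPM per kb in Jak2V617F cells and 627 CPM per kb in WT cells. Ranks in this paragraph follow the group mean, not the median, and Fos held ranks 71 and 51 among 15604 genes with a length. Jun, which pairs with Fos proteins or with itself, followed with 339.7 and 421 CPM per kb in Jak2V617F and WT cells (ranks 117 and 87), then Jund with 226 and 254 (ranks 206 and 171), Junb with 167 and 189 (ranks 267 and 226) and Fosb with 142 and 146 (ranks 326 and 286). Fosl2 and Atf3 were scarce: Fosl2 had 3.07 CPM per kb in Jak2V617F cells and 3.56 in WT cells, and Atf3 had 3.95 and 2.60, all at ranks between 8382 and 9898. Under pegIFNa the order of the abundant members changed, with Jun at 154 CPM per kb above Fos at 141 and Jund at 113 in Jak2V617F cells, and Jun at 110.1, Jund at 107 and Fos at 107 in WT cells. These neighbours lay within the spread between libraries, since the SD of Jun alone was 90.0 CPM per kb in Jak2V617F cells and 93.5 in WT cells. Levels per kb use GENCODE vM21 exon lengths. The start of Jund there differs from that of the counted gene, as do those of Fosl2, Fosb, Junb and Atf3, so these levels and ranks are approximate.

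**Figure D1:**
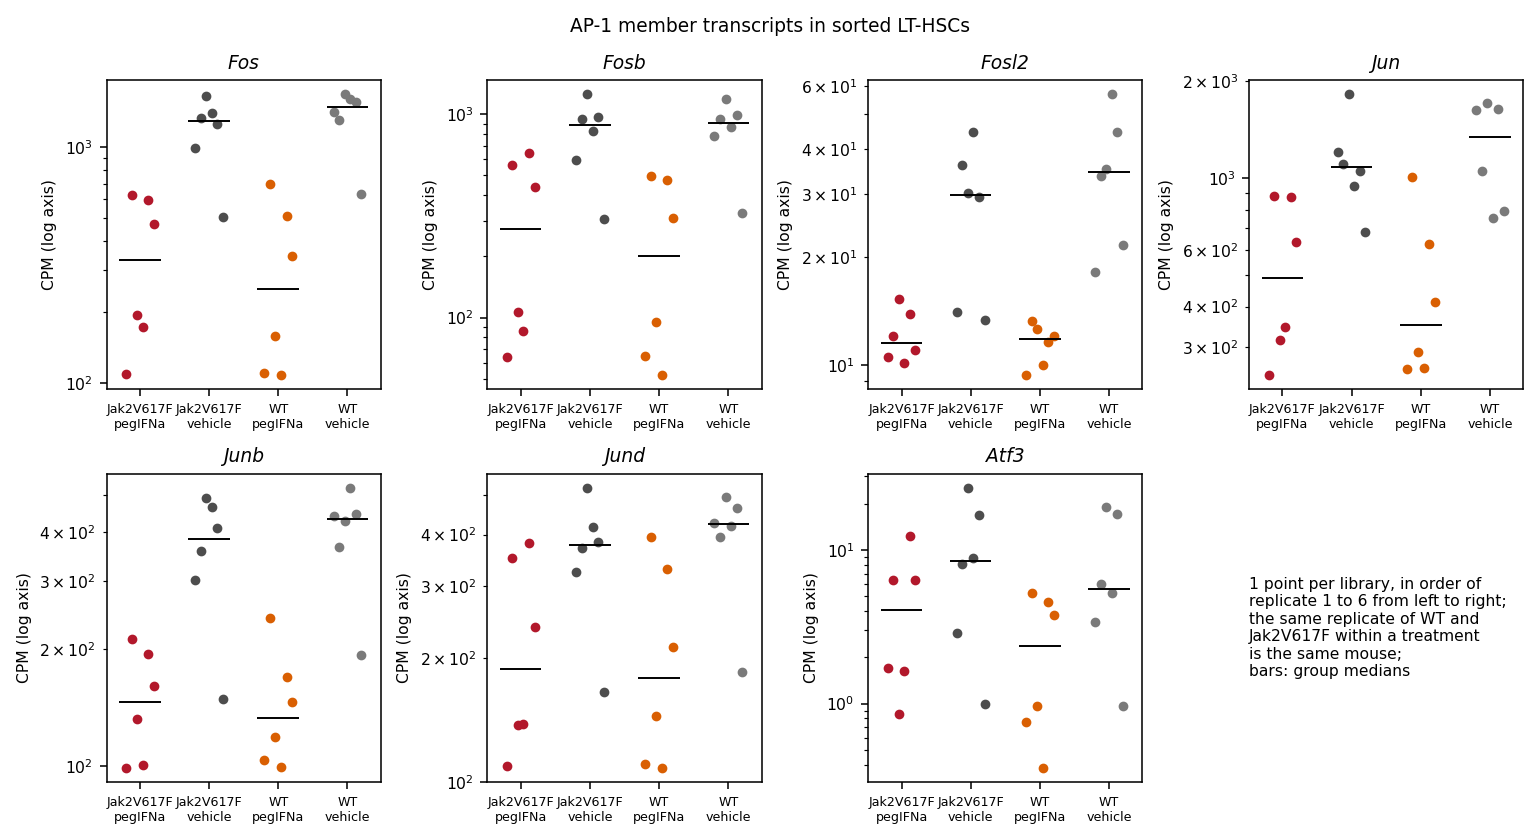
Level of each AP-1 member in every library, in CPM on log axes, with 1 point per library in order of replicate and a bar at the group median. For every member both pegIFNa medians lie below both vehicle medians, and Fosl2 is the member whose pegIFNa libraries are tight, at 9.37 to 15.2 CPM.

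Across the 4 groups the order of medians was the same in kind for all 7 members: both vehicle groups lay above both pegIFNa groups, and the Jak2V617F and WT medians within a treatment differed by less than the SD of either group. With edgeR's quasi-likelihood test on 4 group means and Benjamini-Hochberg adjustment over all 15879 genes, 4 of 7 members were lower under pegIFNa in Jak2V617F cells, where 22.3% of all genes were called lower and 21.7% higher. In WT cells 5 of 7 members were lower, where 28.7% of all genes were called lower and 28.2% higher. No member was called higher. This edgeR test took every library as independent, although each mouse gave both a Jak2V617F and a WT library. For members whose levels were alike within a mouse, adjusted p near the threshold may therefore be too small. The results in Jak2V617F and WT cells come from the same mice, so they are not separate findings. Over the 7 members the median log2 fold change was -1.20 in Jak2V617F cells and -1.61 in WT cells, beside -0.0096 and -0.014 over all genes tested.

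Among the Fos genes, Fos had the largest fold change under pegIFNa in both genotypes. In Jak2V617F cells it had 109, 332 and 625 CPM (lowest, median and highest of 6 libraries) under pegIFNa, against 505, 1293 and 1655 CPM under vehicle. In WT cells it had 108, 251 and 694 CPM under pegIFNa, against 630.1, 1476 and 1674 CPM under vehicle. The ranges overlapped: 4 of 6 Jak2V617F and 5 of 6 WT pegIFNa libraries lay below every vehicle library of their genotype. The log2 fold change was -1.72 ± 0.50 in Jak2V617F cells (SE, n = 6 per group, edgeR adjusted p = 0.0082) and -2.08 ± 0.50 in WT cells (edgeR adjusted p = 0.0014), a level 3.30 and 4.24 times lower.

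Fosb, which is induced like Fos and can act in the same dimers, had 63.6, 272 and 648 CPM under pegIFNa in Jak2V617F cells, against 304, 887 and 1254 CPM under vehicle. In WT cells it had 52.1, 202 and 499 CPM under pegIFNa, against 325, 909.7 and 1186 CPM under vehicle. Its pegIFNa libraries were spread about 10-fold, so 3 of 6 Jak2V617F and 2 of 6 WT libraries overlapped the vehicle range. The log2 fold change was -1.36 ± 0.63 in Jak2V617F cells, which did not pass the test (edgeR adjusted p = 0.087), and -1.77 ± 0.64 in WT cells, which did (edgeR adjusted p = 0.023). The WT call was lost without pegIFNa replicate 3 (-1.58, edgeR adjusted p = 0.051), and Fosb passed in Jak2V617F cells without pegIFNa replicate 5 (edgeR adjusted p = 0.0497).

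Fosl2 encodes Fra-2, a Fos protein without the strong activation domain of Fos. It had 10.1, 11.5 and 15.2 CPM under pegIFNa in Jak2V617F cells, against 13.4, 29.7 and 44.5 CPM under vehicle. In WT cells it had 9.37, 11.8 and 13.3 CPM under pegIFNa, against 18.2, 34.5 and 56.8 CPM under vehicle. It was the only member whose groups did not overlap, and only in WT cells, where 14.8% of all genes tested were lower without overlap (8.58% in Jak2V617F cells). The log2 fold change was -1.20 ± 0.27 in Jak2V617F cells (edgeR adjusted p = 0.0012) and -1.61 ± 0.27 in WT cells (edgeR adjusted p = 3.5e-05).

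Of the 3 Jun genes, Jun and Junb passed the test in both genotypes and Jund in neither. Jun had 245, 492 and 883 CPM under pegIFNa in Jak2V617F cells, against 680.5, 1083 and 1824 CPM under vehicle. In WT cells it had 256, 351 and 1011 CPM under pegIFNa, against 753, 1342 and 1709 CPM under vehicle. In each genotype 2 or fewer pegIFNa libraries reached into the vehicle range. The log2 fold change was -1.05 ± 0.39 in Jak2V617F cells (edgeR adjusted p = 0.033) and -1.41 ± 0.39 in WT cells (edgeR adjusted p = 0.0042). The call in Jak2V617F cells was lost when the pair of libraries with unusual Xist and Y-linked counts was left out, at -0.90 (edgeR adjusted p = 0.070). It was also lost without pegIFNa replicate 1, 3 or 4 or vehicle replicate 1 or 3 of that genotype, with edgeR adjusted p between 0.051 and 0.083.

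Junb, which can dampen Jun and restrains the cycling of stem cells in mice, had 98.6, 147 and 212 CPM under pegIFNa in Jak2V617F cells, against 149, 385 and 491 CPM under vehicle. In WT cells it had 99.6, 133 and 240.3 CPM under pegIFNa, against 193, 434 and 521 CPM under vehicle. The single vehicle library of replicate 6 was what brought the ranges together, since the next lowest vehicle libraries had 302 CPM in Jak2V617F cells and 367 CPM in WT cells. The log2 fold change of Junb was -1.28 ± 0.29 in Jak2V617F cells (edgeR adjusted p = 0.0012) and -1.45 ± 0.29 in WT cells (edgeR adjusted p = 0.00023).

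Jund had 109.8, 188 and 382 CPM under pegIFNa in Jak2V617F cells, against 166, 378 and 519.9 CPM under vehicle, and 108, 179 and 394 CPM under pegIFNa in WT cells, against 185, 424 and 493 CPM under vehicle. In each genotype 3 of 6 pegIFNa libraries lay below every vehicle library. The log2 fold change was -0.69 ± 0.37 in Jak2V617F cells (edgeR adjusted p = 0.14) and -0.87 ± 0.37 in WT cells (edgeR adjusted p = 0.051), neither past the test. Atf3, a stress-induced member that can repress its targets, had 0.854, 4.04 and 12.3 CPM under pegIFNa in Jak2V617F cells, against 0.994, 8.50 and 25.4 CPM under vehicle. In WT cells it had 0.378, 2.38 and 5.27 CPM under pegIFNa, against 0.962, 5.60 and 19.0 CPM under vehicle. Its lowest library held 11 expected counts, its vehicle libraries alone ranged over 25.5-fold in Jak2V617F cells and 19.8-fold in WT cells, and its log2 fold changes of -1.11 ± 0.80 and -1.72 ± 0.82 did not pass the test (edgeR adjusted p = 0.27 and 0.080).

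**Figure D2:**
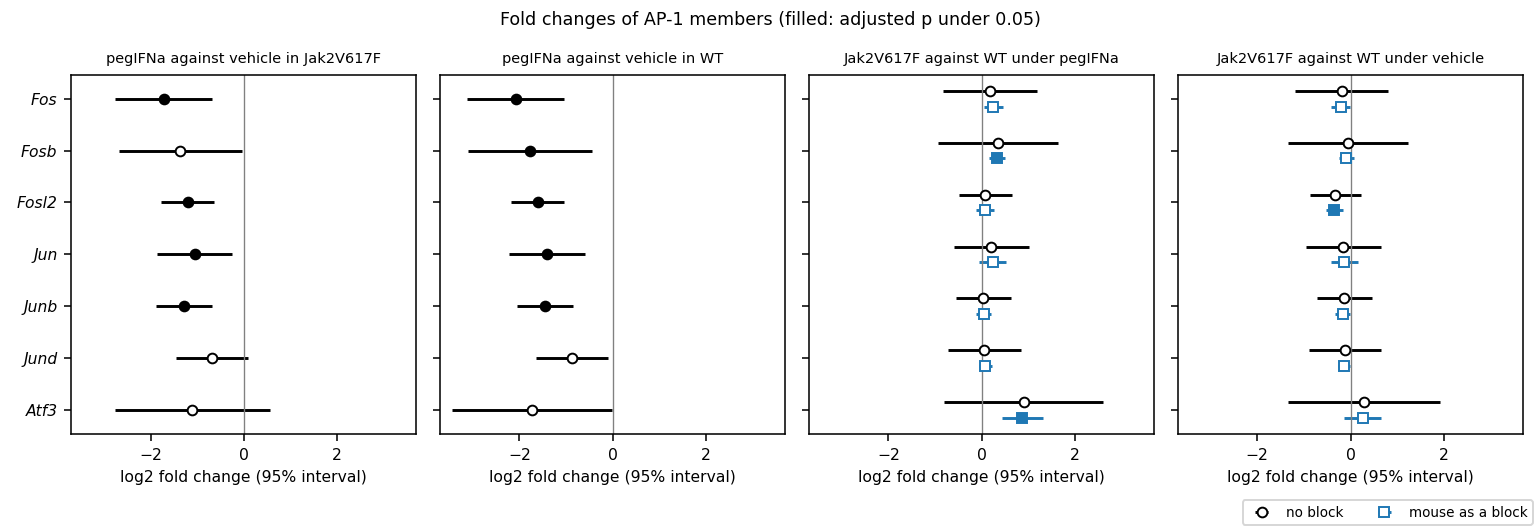
Log2 fold change of each AP-1 member with its 95% interval in 4 comparisons, filled where the adjusted p was under 0.05, and for the genotype comparisons also with the mouse as a block (squares). All 7 members lie below 0 in both treatment comparisons, and the block narrows the genotype intervals without moving their centres far.

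Some calls changed with the model or with 1 library. Jund in WT cells was called lower by DESeq2 (adjusted p = 0.030), with upper-quartile factors (edgeR adjusted p = 0.033) and with limma-voom (adjusted p = 0.012). It also passed without WT pegIFNa replicate 2 or 5, WT vehicle replicate 6, Jak2V617F pegIFNa replicate 1 or Jak2V617F vehicle replicate 6 (edgeR adjusted p between 0.017 and 0.049). Atf3 in WT cells passed with DESeq2 (adjusted p = 0.048) and, in edgeR, without vehicle replicate 6 (adjusted p = 0.0496). DESeq2 also called Fosb in Jak2V617F cells (adjusted p = 0.027).

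The effect of pegIFNa on the members was not shown to differ between genotypes. The difference between the log2 fold change in Jak2V617F cells and that in WT cells was positive for all 7 members, between 0.17 for Junb and 0.62 for Atf3, but its standard errors ran from 0.38 to 1.13 and the smallest edgeR adjusted p was 0.78. For Fos the 95% interval of that difference ran from -1.06 to 1.78. Over all genes edgeR called 0% for the difference, with 1338 genes at an unadjusted p under 0.05, whereas DESeq2 called 46 genes and limma-voom 281; none of these tools called a member.

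Jak2V617F and WT cells were then compared within each treatment. Without the mouse in the model edgeR called 0 of 7 members under pegIFNa (8.59% of all genes called) and 0 under vehicle (12.7%), and no member reached an unadjusted p under 0.05. DESeq2, also without the mouse, called 0 members in both. Limma-voom, which held each mouse as a random effect, called 0 members in both as well, beside 3859 and 5257 of all genes. The largest difference was that of Atf3 under pegIFNa, at 0.90 ± 0.82 (edgeR adjusted p = 0.55). The 95% intervals were wide, for Fos from -0.84 to 1.18 under pegIFNa and from -1.20 to 0.81 under vehicle.

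For most members the cells of 1 mouse lay closer together than the mice did. The log2 difference of Fos between the Jak2V617F and WT cells of 1 mouse was at most 0.68 under pegIFNa, whereas the mouse means ranged over 2.59 log2 units. For Fosb the largest difference within a mouse under pegIFNa was 0.71, against a range of 3.11 between mice. Under vehicle the largest differences within a mouse were 0.49 for Fos and 0.39 for Fosb. The ranges between vehicle mice were 1.56 and 1.96, and they include the mouse of replicate 6, the lowest for both genes. The separation was smaller for Fosl2 under pegIFNa, with differences of up to 0.27 within and a range of 0.48 between mice, and for Atf3, with up to 1.94 within and a range of 3.13 between mice.

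With the mouse as a block in edgeR, 2 of 7 members were higher in Jak2V617F cells than in WT cells under pegIFNa, where 13.3% of all genes were called higher and 11.3% lower. Fosb was higher in Jak2V617F cells in 5 of 6 mice, by 0.33 ± 0.08 (edgeR adjusted p = 0.0073). Its 6 Jak2V617F libraries in order of replicate had 63.6, 565, 107, 85.5, 648 and 437 CPM, against 65.0, 499, 94.9, 52.1, 474 and 309 CPM in the WT cells of the same mice. Atf3 was higher in Jak2V617F cells in 5 of 6 mice, by 0.87 ± 0.21 (edgeR adjusted p = 0.0060). Its Jak2V617F libraries had 1.71, 6.41, 0.854, 1.63, 12.3 and 6.37 CPM, against 0.758, 5.27, 0.965, 0.378, 4.58 and 3.79 CPM in the WT cells of the same mice. Fos differed in the same direction in 4 of 6 mice, by 0.24 ± 0.09, and did not pass (edgeR adjusted p = 0.076), but passed without the mouse of pegIFNa replicate 2 (0.32, edgeR adjusted p = 0.022).

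Under vehicle the block called 1 of 7 members, where 17.5% of all genes were called higher and 13.6% lower. Fosl2 was lower in Jak2V617F cells in 5 of 6 mice, by -0.35 ± 0.09 on the log2 scale (edgeR adjusted p = 0.0049). Its Jak2V617F libraries had 14.0, 36.0, 30.1, 44.5, 29.4 and 13.4 CPM, against 18.2, 33.7, 35.2, 56.8, 44.5 and 21.6 CPM in the WT cells of the same mice. Fos, Junb and Jund were lower in 5 of 6 mice each, by -0.22 ± 0.09, -0.17 ± 0.07 and -0.14 ± 0.06, and did not pass (edgeR adjusted p = 0.097, 0.094 and 0.11). Junb passed without the mouse of vehicle replicate 3 (-0.25, edgeR adjusted p = 0.012). The calls of Fosb, Atf3 and Fosl2 held when each mouse was left out of the blocked fit in turn, with adjusted p up to 0.032, 0.035 and 0.031, and without both mice that held a library with unusual Xist or Y-linked counts (0.0057, 0.025 and 0.018). They were not made by limma-voom, in which the mouse was a random effect with 1 correlation of 0.42 for all genes. The blocked difference between treatments was 0.42 ± 0.11 for Fosb, 0.46 ± 0.13 for Fos and 0.43 ± 0.12 for Fosl2, and none passed (edgeR adjusted p = 0.053, 0.074 and 0.065), beside 3.33% of all genes called. With 1 mouse left out of the blocked fit, this difference passed for Fosb without pegIFNa replicate 1 (edgeR adjusted p = 0.031), for Fos without pegIFNa replicate 2 (0.036), and for Fosl2 without pegIFNa replicate 6 (0.038) or vehicle replicate 2 (0.023).

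**Figure D3:**
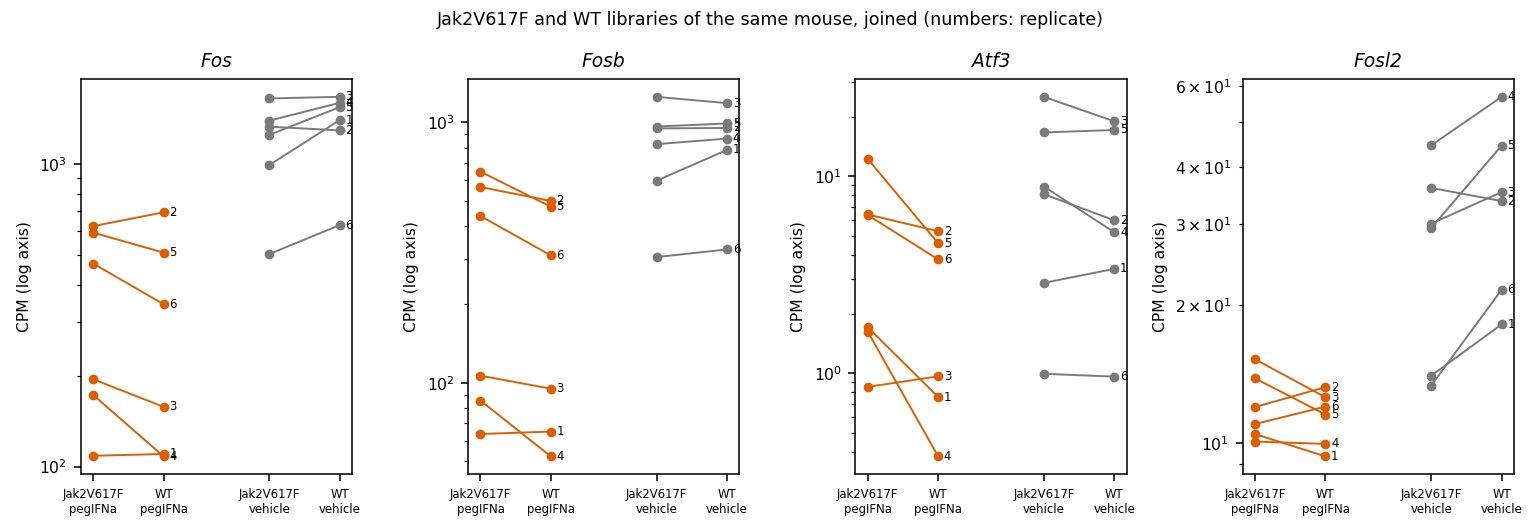
CPM of Fos, Fosb, Atf3 and Fosl2 on log axes, with the Jak2V617F and WT libraries of each mouse joined and numbered by replicate. Under pegIFNa the Fos and Fosb lines lie far apart between mice and are flatter within them. Under vehicle 5 of 6 Fosl2 lines rise towards WT.

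The spread between mice was itself large. Fos varied 5.76-fold among Jak2V617F and 6.43-fold among WT libraries under pegIFNa, against 3.28-fold and 2.66-fold under vehicle. Its SD on the log2 scale was 1.07 in Jak2V617F cells and 1.16 in WT cells under pegIFNa, larger than that of all 500 genes of most similar mean in each group. For every member but Fosl2 the SD exceeded that of 97.2% or more of the 500 similar genes in all 4 groups. Fosl2 did so under vehicle (99.0% in Jak2V617F and 99.6% in WT cells) and sat near the middle under pegIFNa (66.0% and 56.0%).

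The same mice were high or low for nearly all members. Under pegIFNa, replicates 2, 5 and 6 were the 3 highest libraries for 6 of 7 members in Jak2V617F cells and for 6 of 7 in WT cells, Fosl2 being the exception in both. For Jun those 3 replicates had 883, 872 and 636 CPM in Jak2V617F cells, and the other 3 had 245, 315 and 347 CPM. Under vehicle, replicate 6 was the lowest library for 7 of 7 members in Jak2V617F cells and for 5 of 7 in WT cells, where replicate 4 was lowest for Jun (753 CPM) and replicate 1 for Fosl2 (18.2 CPM).

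Other genes moved with these mice. The mean log2 CPM of 23 immediate early genes outside AP-1 was 4.99, 4.86 and 4.66 in replicates 2, 5 and 6 of the Jak2V617F pegIFNa group and 3.45 to 3.96 in the other 3, and 4.84, 4.45 and 4.34 against 3.32 to 3.67 in WT cells. Vehicle replicate 6 had the lowest such mean, 4.55 in Jak2V617F and 4.57 in WT cells, and also the lowest mean of 11 heat shock genes, 5.84 and 5.77. Under pegIFNa the heat shock mean was highest in the same 3 replicates 2, 5 and 6, at 8.45, 8.65 and 8.23 in Jak2V617F cells and 8.34, 8.28 and 7.95 in WT cells. In replicates 1, 3 and 4 it was 7.45, 6.97 and 8.19 in Jak2V617F cells and 7.46, 6.86 and 7.81 in WT cells. The part of the heat shock genes in the split was not tested. The core interferon response did not separate these mice, with means between 7.77 and 8.04 in Jak2V617F cells and between 7.80 and 8.17 in WT cells under pegIFNa. Each position on the sequencing sample sheet was shared by 2 libraries of a group, and under pegIFNa each shared position held 1 of replicates 2, 5 and 6 and 1 of replicates 1, 3 and 4. The labels do not say which libraries were run together, and the part of a run in this split was not tested.

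**Figure D4:**
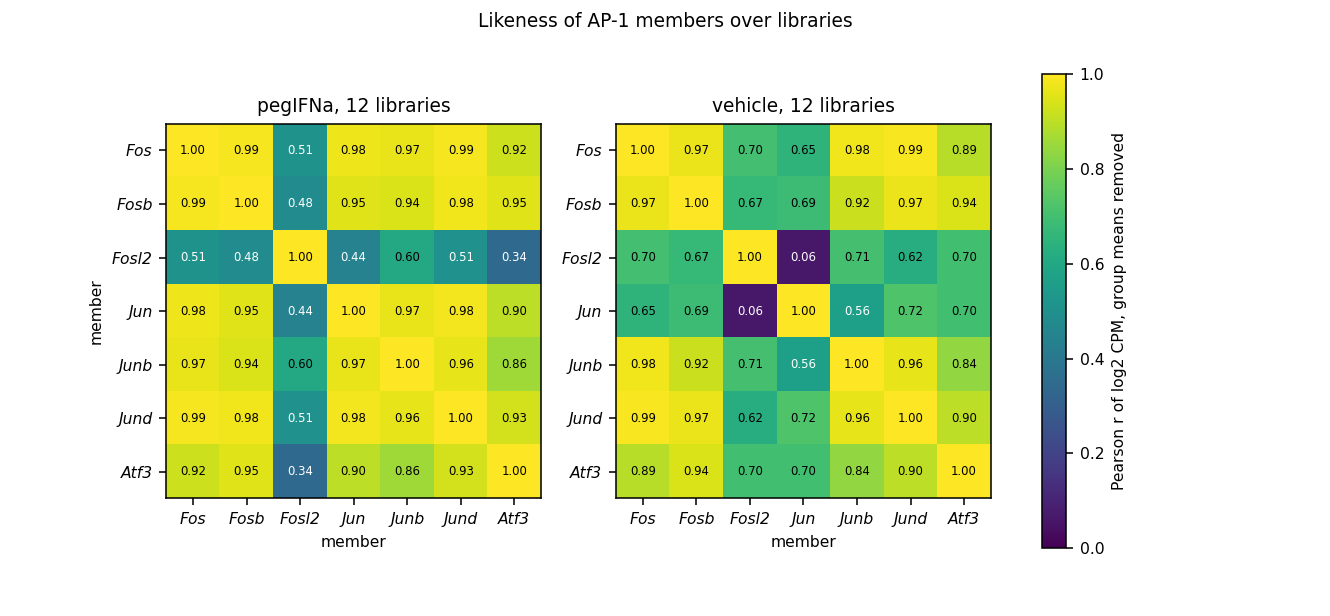
Pearson r between members over the 12 libraries of each treatment, from log2 CPM with group means removed. Pairs among Fos, Fosb, Jund and Junb lie between 0.92 and 0.99 in both panels, whereas Fosl2 has its lowest values with Atf3 under pegIFNa (0.34) and with Jun under vehicle (0.06).

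After group means were removed, the 21 pairs of members had Pearson r between 0.15 and 0.98 over the 24 libraries, with a median of 0.85. These libraries share 12 mice, so they are not 24 independent points. Fos was most like Fosb and Jund, both at 0.98. The genes outside the family most like Fos, among 12251 with a mean log2 CPM of at least 1, were Klf4 (0.96), Dusp1 (0.96) and Egr1 (0.96), 3 immediate early genes. Those most like Fosb were Klf2, Egr1 and Dusp1, those most like Jun were Rhob, Klf2 and Dusp1, and those most like Junb were Ier2, Nr4a1 and Zfp36, all at 0.94 or above. Atf3 was most like RP24-64D24.4, Klf6 and Cd69 (0.94, 0.94 and 0.89). Fosl2 had other neighbours, Dusp5, Scd2 and Nfkbid (0.89, 0.85 and 0.81). Jund was most like Gm11175 (0.98), a gene that lies within it on the opposite strand. The use of strand is not given in the sources used here, so reads of Jund and Gm11175 cannot be told apart.

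**Figure D5:**
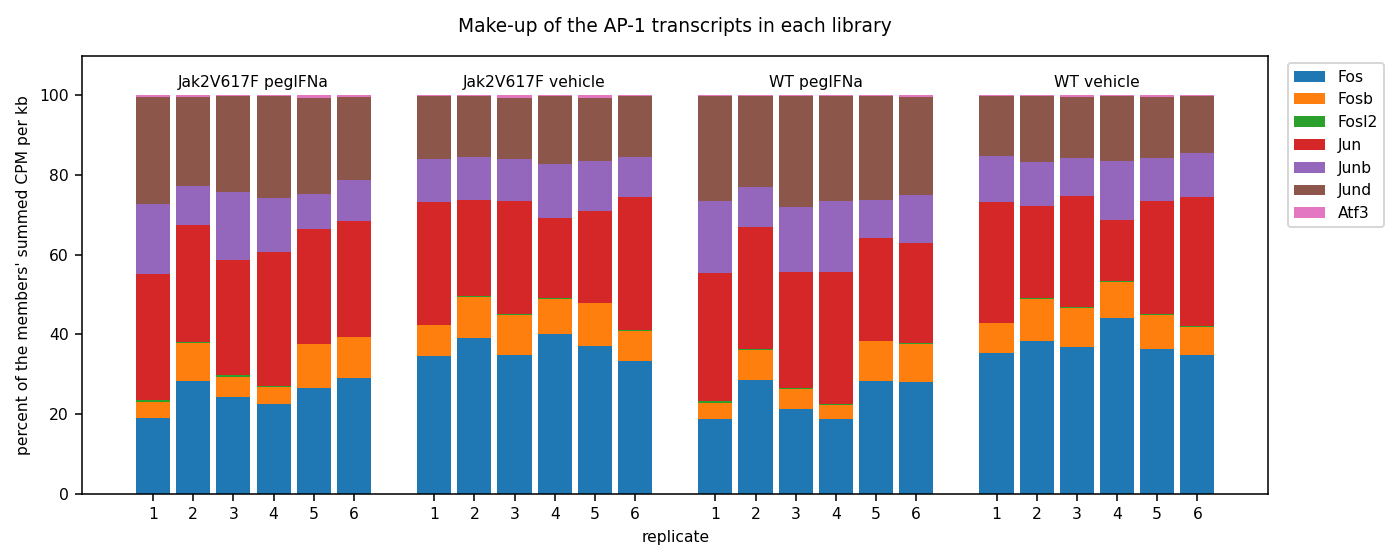
Share of each AP-1 member in the members' summed CPM per kb, with 1 bar per library. Fos makes up 18.7 to 29.1% of the bars under pegIFNa and 33.4 to 44.1% under vehicle, and Jund 20.8 to 27.8% and 14.5 to 16.9%.

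The make-up of the AP-1 messages shifted along with their level. Fos made up 25.4% of the members' summed CPM per kb under pegIFNa in Jak2V617F cells (median, range 18.9 to 29.1%), against 36.0% under vehicle (33.4 to 40.02%). In WT cells its share was 24.8% under pegIFNa (18.7 to 28.5%), against 36.5% under vehicle (35.0 to 44.1%). Jund moved the other way, at 24.1% under pegIFNa against 15.7% under vehicle in Jak2V617F cells and 26.2% against 15.3% in WT cells, again without overlap. The share of Jun overlapped, at 29.3% against 26.2% in Jak2V617F cells and 29.8% against 28.05% in WT cells. Shares sum to a fixed total, so a lower share of 1 member raises the others. The size of the Jund share is uncertain. Its exon length of 1668 bases is from GENCODE vM21, where its start differs from that of the counted gene. Its reads also cannot be told apart from those of Gm11175.

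Immediate early genes outside AP-1 fell with the members. Of 23 tested, 19 were lower and 0 higher under pegIFNa in Jak2V617F cells, and 21 were lower and 0 higher in WT cells, with median log2 fold changes of -1.31 and -1.77. Over all genes tested, 22.3% were called lower in Jak2V617F cells and 28.7% in WT cells. Ier3, a survival gene, changed by -1.30 ± 0.12 in Jak2V617F cells and -1.36 ± 0.12 in WT cells. Dusp2, a phosphatase that removes the activating phosphates of MAP kinases, changed by -0.87 ± 0.14 and -1.16 ± 0.14. Trib1 changed by -1.86 ± 0.31 and -2.34 ± 0.31, and Ppp1r15a, which restarts translation after stress, by -1.29 ± 0.24 and -1.62 ± 0.25. The largest edgeR adjusted p of these changes was 0.00025. With the mouse as a block, 8 of the 23 were higher and 1 lower in Jak2V617F than in WT cells under pegIFNa (13.3% and 11.3% of all genes). Under vehicle 1 was higher and 7 lower (17.5% and 13.6% of all genes). The blocked difference between treatments passed for 5 of 23, beside 3.33% of all genes. These were Btg2, Egr1, Zfp36, Socs3 and Ier5 (named after their values were seen), all positive, between 0.30 and 0.76.

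Dimer partners and upstream kinases went both ways, as did all genes tested. For all lists below, the share over all genes was 21.7% higher and 22.3% lower in Jak2V617F cells. In WT cells it was 28.2% higher and 28.7% lower. Pairs of values below are log2 fold changes ± SE, first in Jak2V617F and then in WT cells, and each named gene passed the edgeR test unless stated. Of 17 other AP-1 and related leucine zipper genes tested, 3 were higher and 3 lower under pegIFNa in Jak2V617F cells, and 4 were higher and 7 lower in WT cells, with medians of -0.087 and -0.062. Maff, a small Maf protein, fell, with log2 fold changes of -1.12 ± 0.20 in Jak2V617F cells and -1.54 ± 0.20 in WT cells. Atf5 rose by 0.71 ± 0.15 and 0.84 ± 0.15, Atf1 by 0.21 ± 0.06 and 0.34 ± 0.06, and the interferon-responsive partner Batf2 by 0.79 ± 0.16 and 0.43 ± 0.16. Of 17 MAP kinase genes, 5 were higher and 6 lower in Jak2V617F cells and 5 higher and 7 lower in WT cells. Map2k1 and Map2k2, which activate ERK, rose by 0.63 ± 0.06 and 0.34 ± 0.06 in Jak2V617F cells and by 0.66 ± 0.06 and 0.54 ± 0.06 in WT cells. Of the kinases that phosphorylate histone H3 at immediate early genes, Rps6ka4 rose by 0.39 ± 0.09 and 0.66 ± 0.09, and Rps6ka5 changed by -0.57 ± 0.09 and -0.75 ± 0.09.

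Of 14 factors known at the Fos and Jun promoters, 2 were higher and 7 lower in Jak2V617F cells, and 3 were higher and 7 lower in WT cells. Elk3, a partner of serum response factor, changed by -0.53 ± 0.09 in Jak2V617F cells and by -0.63 ± 0.09 in WT cells. Mkl2, a cofactor of the same factor, changed by -0.56 ± 0.09 and -0.58 ± 0.09, and Stat3 by -0.41 ± 0.08 and -0.50 ± 0.08. Srf itself, named after its value was seen, went the other way in WT cells, at 0.39 ± 0.09 (edgeR adjusted p = 0.00046). In the core interferon list, 12 of 12 genes rose in both genotypes. Isg15, a ubiquitin-like interferon target, rose by 5.06 ± 0.11 and 5.45 ± 0.12, Irf7 by 5.13 ± 0.16 and 5.33 ± 0.17, Usp18 by 4.54 ± 0.12 and 4.49 ± 0.12, and Oas1a by 3.00 ± 0.06 and 3.13 ± 0.07.

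Of 11 genes that control the decay of AU-rich messages, 4 were higher and 2 lower in Jak2V617F cells, and 4 were higher and 3 lower in WT cells. Zfp36, which binds the AU-rich element and is itself an immediate early gene, changed by -1.61 ± 0.36 in Jak2V617F cells and by -2.18 ± 0.37 in WT cells. Zfp36l2, its relative, changed by -0.44 ± 0.06 and -0.38 ± 0.06. Khsrp rose by 0.22 ± 0.06 and 0.42 ± 0.06, and Dcp2, which removes the cap, by 0.23 ± 0.05 and 0.28 ± 0.05. Of 14 reported AP-1 target genes, 2 were higher and 3 lower in Jak2V617F cells, and 4 were higher and 3 lower in WT cells. Icam1, an adhesion molecule, changed by -0.90 ± 0.11 in Jak2V617F cells and by -1.26 ± 0.11 in WT cells, and Plaur, the urokinase receptor, by -0.64 ± 0.21 and -1.09 ± 0.21. Vim rose by 0.29 ± 0.11 and 0.62 ± 0.11, and Ezr rose by 0.25 ± 0.05 in WT cells, with 0.06 ± 0.05 in Jak2V617F cells, which did not pass the test. Of 11 heat shock genes, which with the immediate early genes respond to handling of cells, 7 were higher and 0 lower in each genotype. Hspd1 rose by 0.63 ± 0.09 and 0.76 ± 0.09, Hspe1 by 0.83 ± 0.12 and 0.90 ± 0.12, Hsp90aa1 by 0.71 ± 0.11 and 0.76 ± 0.11, and Hsp90ab1 by 0.40 ± 0.06 and 0.46 ± 0.06. In WT cells the genes that did not pass were Hspa1a (0.63 ± 1.33), Hspa1b (1.26 ± 1.22), Hspb1 (0.50 ± 0.68) and Dnajb1 (0.07 ± 0.19), named after their values were seen. The part of handling in the fall of the members was not tested.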

How the data were processed

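RNA of sorted LT-HSCs was enriched for polyA, made into NEBNext Ultra II libraries and sequenced as single 75-base reads, per the labels' protocols. The deposited values are RSEM expected counts per gene, 1 column per library, and the submitters' processing notes name RSEM 1.2.30, the aligner STAR 2.5.2a, the trimmer cutadapt 1.11 and build GRCm38 for the authors' work. The annotation release and the use of strand are not given in the sources used here. RSEM divides reads that fit several genes, so 16.8% of the values were not whole; they were rounded before testing.

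Of 38215 genes, 15879 passed filterByExpr with a minimum count of 10 and were tested, holding 99.95% of the counts. The main test was edgeR 4.0.16 (R 4.3.3) with TMM factors, 4 group means and robust quasi-likelihood fits, with Benjamini-Hochberg adjustment over all tested genes and a threshold of 0.05; the common biological coefficient of variation was 18.6%. CPM are scaled by TMM, and log2 CPM use a prior count of 2. Levels per kilobase use the exon length of GENCODE vM21. Alternatives were DESeq2 1.42.0, limma 3.58.1 (voom with the mouse as a random effect), other factors, filters and sets of libraries, and blocks. The scripts were tested on simulated counts.

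Replicate numbers pair the Jak2V617F and WT libraries of a mouse, since both library names carry the same mouse number. The deviations from group means of the 12 pairs correlated at 0.12 to 0.42, and 11 of 12 pairs were highest with their own partner. The block on the mouse was therefore used for the genotype comparisons beside the unblocked test. The main test of pegIFNa against vehicle did not hold the mouse. No pair of libraries agreed within sampling noise, with chi-square per degree of freedom of 6.36 or more. The 7 members and the gene and marker lists were chosen with earlier results of these data known. Named genes are the 7 members, the 3 genes most like each member, and the 4 genes of each list with the smallest p over the treatment and genotype comparisons. The result of 1 such gene is not reported here. Intervals cover the spread between libraries, and the depth of each library sets the counting error.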

Additional observations from a re-analysis of the deposited data

Results flagged for a closer look

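Fos in the WT vehicle library of replicate 6 had 630.1 CPM, and the nearest of the other 5 libraries had 1297 CPM. The gap was 0.638 of the range of the group, above Dixon's 95% critical value for 6 samples. Jund in the same library had 185 CPM, and the nearest library had 394 CPM, a gap of 0.679 of the range. These were 2 of 28 sets of 1 member in 1 group, and chance flags about 1 in 20 such sets. The Jak2V617F library of the same mouse was also the lowest of its group for both genes, and the mean of the heat shock genes was lowest in both libraries of this mouse; the part of this in the result was not tested. Without the WT vehicle library of replicate 6, Atf3 in WT cells passed the test (edgeR adjusted p = 0.0496).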

How the results depend on the processing

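No alternative run changed the direction of a member's response to pegIFNa, and members called in WT and Jak2V617F cells were 7 and 5 with DESeq2, 6 and 4 with upper-quartile factors or the 1 CPM filter, 5 and 3 without a filter, and 6 and 5 with limma-voom, which held the mouse as a random effect. Across treatments a replicate number is shared by different mice, whose deviations correlated at -0.24 to 0.057; with that number as a block 6 and 5 members were called. Jun in Jak2V617F cells was lost without a filter (-1.03, edgeR adjusted p = 0.057), and leaving out single libraries or mice took its adjusted p to 0.089. Fosb in WT cells was lost without WT pegIFNa replicate 3 (-1.58, edgeR adjusted p = 0.051). Leaving out 1 library gave 4 to 7 members in WT and 3 to 5 in Jak2V617F cells. The cause was not tested.

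For Jak2V617F against WT, the replicate block on the mouse called 2 members under pegIFNa and 1 under vehicle, against 0 without it, and the same 2 and 1 in number without both mice whose libraries stood apart. Leaving out each mouse in turn under this block gave 2 to 3 members under pegIFNa, 1 to 2 under vehicle and 0 to 1 for the difference between treatments. Over all genes the block called 3910, 4944 and 528 genes in these comparisons, against 1364, 2018 and 0 without it.

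Unblocked genotype differences changed sign when single libraries were left out. Under pegIFNa they ranged from -0.069 to 0.54 for Fos, -0.0053 to 0.12 for Fosl2, -0.10 to 0.22 for Junb and -0.16 to 0.31 for Jund. Under vehicle they ranged from -0.22 to 0.12 for Fosb, -0.27 to 0.031 for Junb, -0.27 to 0.0301 for Jund and -0.18 to 0.68 for Atf3. The difference between treatments ranged from -0.0076 to 0.35 for Junb and -0.045 to 0.43 for Jund. None of these passed the test. Expected counts of Atf3 as low as 11 limit its precision, and the other scalings moved the median of all genes by less than 0.1.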
